A study of Mus musculus with 12 samples.

Results

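The BCL2 family decides at the mitochondrion whether a cell survives or dies, and 10 of its genes were followed here in muscle stem cells with and without *Gli3*. The genes were listed by symbol, and all 10 were present among the 25093 genes of the deposited count table. They are the anti-apoptotic genes *Bcl2*, *Bcl2l1* and *Mcl1*, the effectors *Bax* and *Bak1*, and the BH3-only genes *Bid*, *Bad*, *Bbc3*, *Pmaip1* and *Bcl2l11*. BAX and BAK1 form pores in the outer mitochondrial membrane that release cytochrome c and start the caspase cascade. BCL2, BCL-XL (the product of *Bcl2l1*) and MCL1 bind the effectors and hold them back, and the BH3-only proteins relay stress or loss of growth signals by occupying the anti-apoptotic proteins or engaging the effectors. Much of this control acts on the proteins, through phosphorylation, cleavage and degradation, which RNA-sequencing does not measure.

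The series compared satellite cells, the stem cells of skeletal muscle, by RNA-sequencing in 4 groups of 3 samples. Control mice were Pax7-CreERT2/+;Gli3+/+;R26R-YFP (written Gli3+/+ here) and conditional knockout mice were Pax7-CreERT2/+;Gli3fl/fl;R26R-YFP (Gli3Δ/Δ). All mice were 3 to 4 months old, male and of mixed 129SV and C57BL/6 background, and both genotypes received tamoxifen, so that the controls carried the Pax7-driven Cre and the drug as well and differed in the floxed *Gli3* allele. The recombinase is expressed from the *Pax7* locus, which restricts the deletion to satellite cells and their progeny. Quiescent satellite cells (QSCs) were sorted as α7-integrin+ CD34+ cells from uninjured hindlimb muscle, with 2 to 3 mice combined per sample. Activated satellite cells (ASCs) were sorted as α7-integrin+ VCAM1+ cells on day 3 after cardiotoxin, a venom toxin that destroys myofibers, with 1 mouse per sample.

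The 6 QSC libraries held 39556784 to 65750131 estimated counts. The columns of the 6 ASC libraries carry names that match no sample label and were used in no step, so that ASCs enter only through a mean over all samples, described at the end. All 8 satellite cell markers examined, *Pax7* among them, were measured in every QSC library, and their summed level ran from 5790 to 7815 CPM in Gli3+/+ and from 5805 to 5986 CPM in Gli3Δ/Δ QSCs (CPM, each count divided by its library's total after TMM correction in edgeR). *Gli3* itself was counted at 11.2, 9.71 and 9.75 CPM in Gli3+/+ and at 9.54, 10.5 and 6.25 CPM in Gli3Δ/Δ QSCs (log2 fold change -0.22, adjusted p = 0.916; adjusted p-values are from the edgeR quasi-likelihood test, corrected by Benjamini-Hochberg, unless another tool is named). The deletion removes a single exon that gene counts do not separate, so these counts do not check the genotype, which is taken here from the labels. The paper reports that *Gli3* excision was checked by RT-qPCR in QSCs and their myogenic progeny.

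Family members share a short BH3 stretch, the helix through which they bind each other. The 36 coding bases around it are shown for 9 members, because this is the feature that joins genes of opposed function. They were found in GENCODE vM21 transcripts (GRCm38) as the single place in each coding sequence with a leucine codon, any 2 codons, a codon for alanine, isoleucine, valine or methionine, a codon for glycine, alanine or serine, and an aspartate codon. Capitals mark the leucine codon and, after it, the last pair of codons, of which the first reads glycine in 7 members, serine in *Bad* and alanine in *Bbc3*. Each stretch lies within 1 coding exon and is written 5′ to 3′ on the strand of the gene.
Bcl2, chr1:106712575-106712610, minus strand: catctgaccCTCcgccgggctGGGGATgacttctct
Bcl2l1, chr2:152829697-152829732, minus strand: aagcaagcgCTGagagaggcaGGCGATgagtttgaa
Mcl1, chr3:95659427-95659462, plus strand: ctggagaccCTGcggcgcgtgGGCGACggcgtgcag
Bax, chr7:45465997-45466032, minus strand: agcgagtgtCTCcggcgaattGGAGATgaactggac
Bak1, chr17:27022531-27022566, minus strand: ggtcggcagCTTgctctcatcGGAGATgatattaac
Bid, chr6:120897289-120897324, minus strand: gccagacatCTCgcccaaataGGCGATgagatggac
Bad, chr19:6950783-6950818, plus strand: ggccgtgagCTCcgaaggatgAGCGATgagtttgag
Bbc3, chr7:16313764-16313799, plus strand: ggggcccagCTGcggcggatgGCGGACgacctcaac
Bcl2l11, chr2:128147141-128147176, plus strand: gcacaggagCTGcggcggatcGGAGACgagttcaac

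To ask whether the balance of the family differs between the genotypes before injury, each member was compared between Gli3+/+ and Gli3Δ/Δ QSCs. No member was called by edgeR, in which 0 of 10 passed an adjusted p under 0.05 with a fold change of at least 1.2, where 0.351% of all 25093 genes did (88 genes, 47 higher and 41 lower in Gli3Δ/Δ). The means of 4 members were higher and those of 6 lower in Gli3Δ/Δ QSCs, and the median log2 fold change was -0.04, against -0.03 over all genes. *Bcl2l11*, which encodes the BH3-only protein BIM, stood nearest to a call, at 22.5 ± 3.03 CPM in Gli3+/+ and 13.3 ± 0.830 CPM in Gli3Δ/Δ QSCs (SD, n = 3 each). It was the 1 member whose genotypes did not overlap, a pattern that 13% of all genes showed, and the 1 member with an unadjusted p under 0.05, as 7.11% of all genes had. The p-values measure the spread between these libraries, each of which combined several mice.

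**Figure D1:**
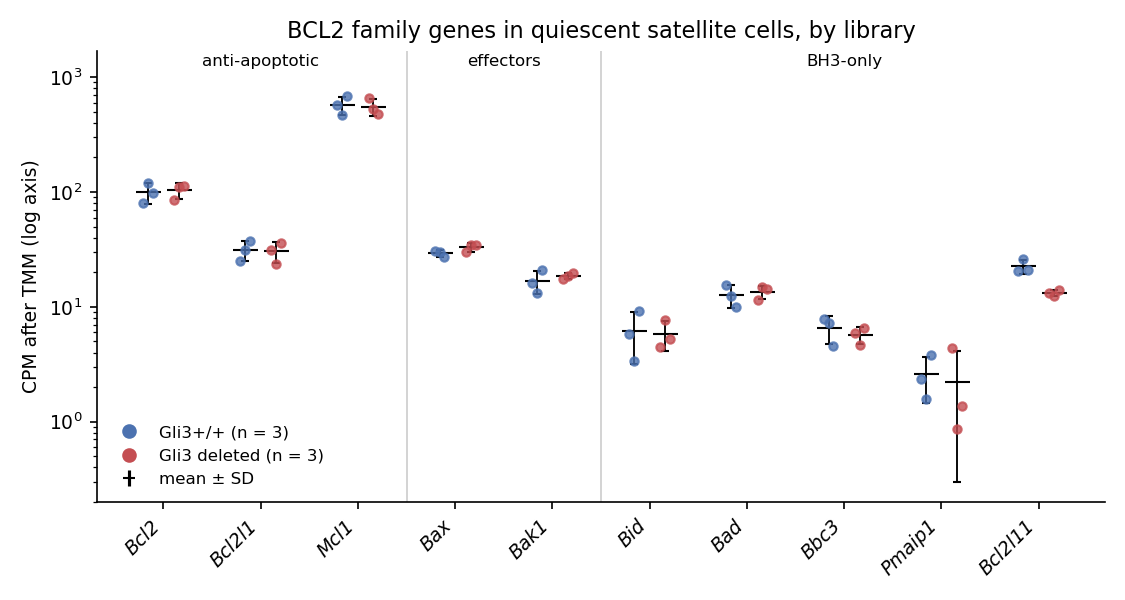
Level of each member in the 6 QSC libraries, in CPM after TMM on a log axis, with a point per library (blue, Gli3+/+; red, Gli3Δ/Δ) and bars for the mean ± SD of 3 libraries. *Mcl1* sits highest, at 466 to 679 CPM, and *Bcl2l11* is the 1 gene whose blue and red points do not overlap (20.7 to 26.0 against 12.4 to 14.1 CPM).

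Among the anti-apoptotic genes, *Bcl2* (ENSMUSG00000057329.7, chr1:106538178-106714274, minus strand) was counted at 80.0, 120.9 and 98.4 CPM in Gli3+/+ and at 85.0, 111.6 and 113.9 CPM in Gli3Δ/Δ QSCs. The lowest and the highest library are both Gli3+/+, and the Gli3Δ/Δ libraries lie between them. The log2 fold change, Gli3Δ/Δ over Gli3+/+, was 0.05 (SE 0.19, 95% interval -0.37 to 0.47, adjusted p = 0.989). An antisense gene, *D630008O14Rik*, overlaps its exons on the other strand. The library kit keeps the strand, but whether the counting used it is not given in the sources used here.

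*Bcl2l1* (ENSMUSG00000007659.18, chr2:152780668-152831728, minus strand), whose main product BCL-XL protects differentiating cells in many tissues, was at 25.3, 31.2 and 37.2 CPM in Gli3+/+ and at 31.5, 23.7 and 36.3 CPM in Gli3Δ/Δ QSCs. The groups overlapped over most of their range, with a log2 fold change of -0.04 (95% interval -0.49 to 0.42, adjusted p = 0.998). The gene is also known to yield a shorter, pro-apoptotic protein, whose transcripts gene counts do not separate. *Mcl1* (ENSMUSG00000038612.16, chr3:95658788-95663176, plus strand), which encodes a short-lived protein that must be made continuously, was at 569, 466 and 679 CPM in Gli3+/+ and at 655, 528 and 479 CPM in Gli3Δ/Δ QSCs. Each group held a library near the top and one near the bottom of the range, and the log2 fold change was -0.05 (95% interval -0.46 to 0.37, adjusted p = 0.992).

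Of the effectors, *Bax* (ENSMUSG00000003873.11, chr7:45461697-45466898, minus strand) was at 30.6, 30.0 and 27.1 CPM in Gli3+/+ and at 29.8, 34.6 and 34.7 CPM in Gli3Δ/Δ QSCs. The lowest Gli3Δ/Δ library fell within the Gli3+/+ range and the other two lay above it, for a log2 fold change of 0.18 (SE 0.14, 95% interval -0.13 to 0.48, adjusted p = 0.895). *Bak1* (ENSMUSG00000057789.13, chr17:27019810-27029009, minus strand) was at 16.3, 13.3 and 20.7 CPM in Gli3+/+ and at 17.3, 18.7 and 19.5 CPM in Gli3Δ/Δ QSCs. All 3 Gli3Δ/Δ libraries lay inside the Gli3+/+ range, with a log2 fold change of 0.14 (95% interval -0.28 to 0.56, adjusted p = 0.933). *Bax* shares exonic bases with *Gm45808* on the same strand, and *Bak1* with *Ggnbp1* on the opposite strand, so that reads there could be split between the genes.

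Of the BH3-only genes, *Bcl2l11* (ENSMUSG00000027381.16, chr2:128126038-128162547, plus strand) encodes BIM, which binds all the anti-apoptotic proteins of the family and is induced in many cells when growth factors are withdrawn. It was at 20.7, 26.0 and 20.8 CPM in Gli3+/+ and at 13.2, 12.4 and 14.1 CPM in Gli3Δ/Δ QSCs. Every Gli3Δ/Δ library was below every Gli3+/+ library, and the Gli3Δ/Δ mean was 0.59 of the Gli3+/+ mean. The log2 fold change was -0.76 (SE 0.16, 95% interval -1.12 to -0.41, unadjusted p = 0.000936, rank 183 of 25093 genes), and its adjusted p in edgeR was 0.127. DESeq2, which called 1.53% of all genes in the same libraries, gave a log2 fold change of -0.76 and an adjusted p of 0.00258, the 1 call of a member by any tool, and limma-voom gave an adjusted p of 0.099. On simulated counts DESeq2 called more unchanged genes than edgeR or limma-voom, and it also recovered more of the changed genes. Both bear on all calls made by DESeq2 alone.

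Some marker genes separated the same libraries. Of 66 markers in 12 lists, 10 did not overlap between the genotypes (15.2%, against 13% of all genes). Of the Schwann cells, the glia that wrap motor axons, the regulator *Sox10* was at 4.27, 2.89 and 4.43 CPM in Gli3+/+ and 1.26, 1.82 and 2.26 CPM in Gli3Δ/Δ QSCs, and the myelin gene *Mbp* at 29.4, 23.0 and 36.7 CPM and 10.3, 19.5 and 17.3 CPM. Both were measured in every library, with every Gli3Δ/Δ library below every Gli3+/+ library. Neither was called by edgeR (adjusted p = 0.337 for *Sox10* and 0.375 for *Mbp*) or by limma-voom, whereas DESeq2, the tool that called *Bcl2l11*, also called *Sox10* lower, at an adjusted p of 0.0465. In the other direction, *Myog*, a marker of committed myogenic cells chosen here after its values were seen, was at 4.94, 2.61 and 6.31 CPM in Gli3+/+ and 14.2, 9.67 and 9.05 CPM in Gli3Δ/Δ QSCs (adjusted p = 0.297 in edgeR and 0.0171 in DESeq2), while the sum of the 5 markers of its list overlapped (123 to 182 against 138 to 148 CPM). The part of these cells in the *Bcl2l11* difference was not tested. In sorted bulk samples, fewer cells of a type and less RNA per cell cannot be told apart. The immediate-early and heat-shock genes of the dissociation response summed to 42495 to 59260 CPM in Gli3+/+ and 41958 to 46516 CPM in Gli3Δ/Δ QSCs, overlapping between the genotypes.

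*Bid* (ENSMUSG00000004446.12, chr6:120891930-120916853, minus strand), which links death receptors to the mitochondrion once a caspase has cut its protein, was at 5.79, 3.39 and 9.24 CPM in Gli3+/+ and at 4.43, 7.71 and 5.29 CPM in Gli3Δ/Δ QSCs. The Gli3+/+ libraries alone spanned the whole range, and the log2 fold change of -0.07 had a 95% interval of -0.90 to 0.75 (adjusted p = 0.995). *Bid* and *Bcl2l13*, another family gene, overlap on opposite strands. *Bad* (ENSMUSG00000024959.13, chr19:6941861-6951899, plus strand), whose protein is held inactive by phosphorylation downstream of growth factors, was at 15.6, 12.3 and 10.05 CPM in Gli3+/+ and at 11.6, 14.9 and 14.3 CPM in Gli3Δ/Δ QSCs. The genotypes overlapped, with a log2 fold change of 0.10 (95% interval -0.36 to 0.56, adjusted p = 0.964), and *Gpr137* overlaps *Bad* on the opposite strand.

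Both remaining BH3-only genes are known p53 targets. *Bbc3* (ENSMUSG00000002083.13, chr7:16308393-16318205, plus strand), which encodes PUMA, was at 7.87, 7.23 and 4.53 CPM in Gli3+/+ and at 5.92, 4.67 and 6.49 CPM in Gli3Δ/Δ QSCs. The Gli3Δ/Δ values all lay within the Gli3+/+ range (log2 fold change -0.20, 95% interval -0.78 to 0.38, adjusted p = 0.931). *Pmaip1* (ENSMUSG00000024521.7), which encodes NOXA, a partner of MCL1, was at 2.36, 1.59 and 3.78 CPM in Gli3+/+ and at 4.39, 0.865 and 1.36 CPM in Gli3Δ/Δ QSCs. Both the highest and the lowest library were Gli3Δ/Δ, 5.07 times apart, and the log2 fold change of -0.22 had a 95% interval of -1.55 to 1.10 (adjusted p = 0.979). Its counts ran from 58 to 230 a library, and the spread between libraries beyond counting error, as edgeR estimates it, was 51.9%, the widest of the family.

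**Figure D2:**
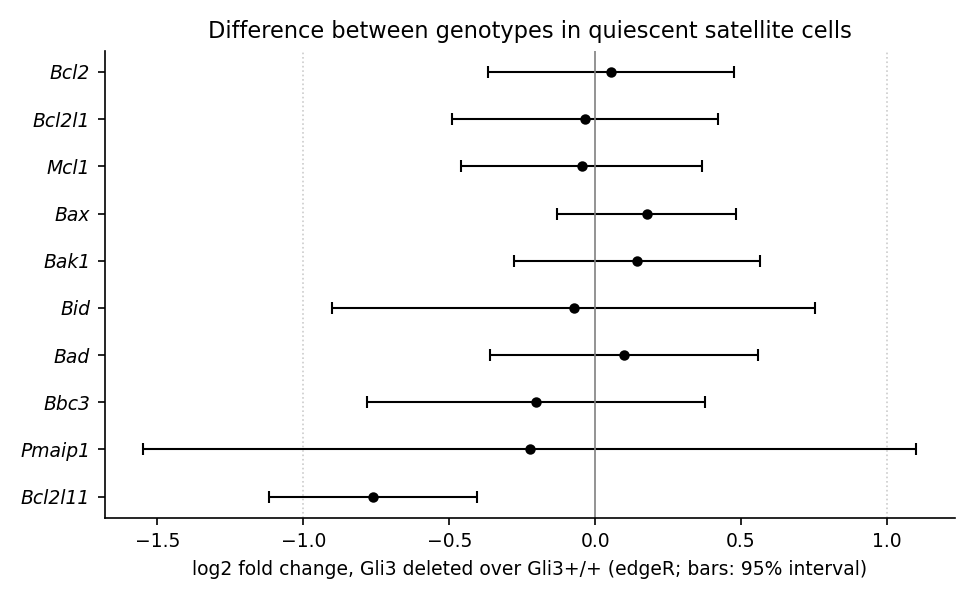
Log2 fold change of each member in QSCs, Gli3Δ/Δ over Gli3+/+, from edgeR with 3 libraries a genotype, where the bars are 95% intervals and the dotted lines mark a change of 1 on the log2 scale. Intervals of 9 members include 0, *Bcl2l11* lies at -0.76 (-1.12 to -0.41), and *Pmaip1* has the widest interval (-1.55 to 1.10).

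The intervals bound what these libraries allow. For 8 of the 10 members the whole 95% interval lay within a log2 change of 1 in either direction, the exceptions being *Bcl2l11* on the lower side and *Pmaip1* on both. A p above the threshold for the other members does not show that their levels were equal, and for *Bax* and *Bak1* the intervals reached 0.48 and 0.56 on the log2 scale.

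Counts grow with transcript length, so levels were set against each other only as CPM per kilobase of annotated exons. *Mcl1* was highest at 167 ± 31.2 CPM per kilobase in Gli3+/+ QSCs (SD, n = 3), followed by *Bax* at 18.5 ± 1.19, *Bcl2* at 10.9 ± 2.23, *Bak1* at 6.97 ± 1.56 and *Bcl2l1* at 6.82 ± 1.30. The BH3-only genes took the lower places, with *Bad* at 4.95 ± 1.10, *Bbc3* at 3.08 ± 0.836, *Bcl2l11* at 2.80 ± 0.378, *Bid* at 1.73 ± 0.827 and *Pmaip1* at 0.943 ± 0.408 CPM per kilobase. With all annotated exons as the length, the first 3 genes were separated from their neighbours, and *Bad* from *Bbc3*, in the Gli3+/+ libraries. The Gli3+/+ ranges overlapped between *Bak1* and *Bcl2l1*, *Bcl2l1* and *Bad*, *Bbc3* and *Bcl2l11*, *Bcl2l11* and *Bid*, and *Bid* and *Pmaip1*. The order of the means was the same in Gli3Δ/Δ QSCs, but with the longest annotated transcript as the length *Bcl2l1* and *Bad* stood above *Bak1*, and *Bcl2l11* above *Bbc3*. With that length the Gli3+/+ ranges of *Bcl2* and *Bcl2l1* overlapped.

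**Figure D3:**
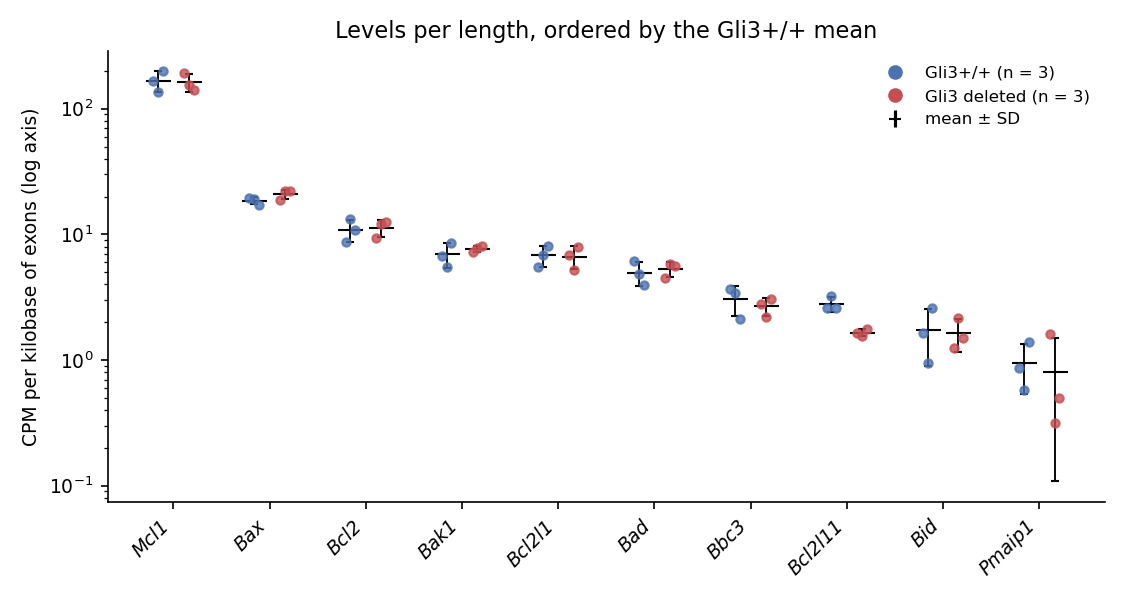
Level of each member per kilobase of exons in the 6 QSC libraries, on a log axis and ordered by the Gli3+/+ mean, with a point per library and bars for the mean ± SD of 3 libraries. *Mcl1* leads at 167 CPM per kilobase in Gli3+/+, and with this length the 5 BH3-only genes hold the last 5 places in both genotypes.

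By role, the anti-apoptotic genes made up 82.4 ± 2.30% of the summed level per kilobase of the 10 members in Gli3+/+ QSCs and 81.4 ± 2.87% in Gli3Δ/Δ QSCs (SD, n = 3 each). *Mcl1* alone held 74.3 ± 3.69% and 73.1 ± 4.54%. The effectors held 11.5 ± 1.31% in Gli3+/+ and 13.1 ± 2.22% in Gli3Δ/Δ, and the BH3-only genes 6.11 ± 1.02% and 5.52 ± 0.654%. Each difference between the genotypes was smaller than the larger of the 2 SDs. The shares depend on the length used. With the longest annotated transcript, *Mcl1* held 67.4 ± 4.34% in Gli3+/+ and 66.1 ± 5.25% in Gli3Δ/Δ QSCs, and the anti-apoptotic genes 78.1 ± 2.90% and 77.0 ± 3.34%. The effectors then held 13.8 ± 1.61% and 15.6 ± 2.43%, and the BH3-only genes 8.13 ± 1.33% and 7.36 ± 0.913%. The shares were computed after the values were known and are shares of RNA, not of protein.

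The members did not vary as a block between libraries. Over the 6 QSC libraries, of 45 pairs of members, 2 had a Pearson correlation above 0.8 on the log2(CPM + 1) scale (*Mcl1* with *Pmaip1*, 0.851, and *Bak1* with *Bid*, 0.816) and 1 lay below -0.8 (*Bax* with *Pmaip1*, -0.815). The genes most like *Bcl2* among those of at least 10 CPM were *Rgmb* (0.966), *Luc7l3* (0.964), *Exoc8* (0.963), *Armt1* (0.962) and *Itgb4* (0.961). These are descriptions over 6 points that share library depth and sort.

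The wider death machinery was read from 7 lists of 102 genes, 99 of them present in the count table. Among these, *Bcl2a1a* and *Bcl2a1d* had 0 CPM in all 6 QSC libraries, and *Bcl2a1b* was at most at 0.038 CPM. In QSCs 0 of the 99 were called between the genotypes (edgeR), 6 had an unadjusted p under 0.05 and the genotypes did not overlap for 10, shares to be read against 7.11% and 13% of all genes. DESeq2, with 1.53% of all genes called, called 2 of the 99, *Tnfrsf10b* (adjusted p = 0.0372) and *Itpr3* (adjusted p = 0.0332), and limma-voom 0. In the list of other BCL2 family genes (14 in the count table with those without counts, median log2 fold change 0.01), *Bnip3l*, a mitophagy receptor, was at 80.3, 73.6 and 57.7 CPM in Gli3+/+ and 89.4, 88.7 and 101.0 CPM in Gli3Δ/Δ QSCs (adjusted p = 0.623). *Bik*, a BH3-only gene, stayed below 0.7 CPM in all 6 libraries (adjusted p = 0.742). Among 19 genes of the apoptosome, caspases and inhibitors of apoptosis (median -0.05), *Birc5*, an inhibitor that also serves in cell division, was at or below 1.64 CPM (adjusted p = 0.811).

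Among 13 death receptor genes (median -0.10), the TRAIL receptor gene *Tnfrsf10b* was at 11.9, 7.96 and 23.5 CPM in Gli3+/+ and 7.37, 4.92 and 5.49 CPM in Gli3Δ/Δ QSCs, without overlap (log2 fold change -1.29, adjusted p = 0.390), and *Tnfrsf21* was at -0.47 (adjusted p = 0.677). In the p53 network (18 genes, median 0.08), *Eda2r* was at 0.30 on the log2 scale (adjusted p = 0.747) and *Pidd1* at 0.68 (adjusted p = 0.785), both without overlap. Among 11 stress and FOXO regulators of BH3-only genes (median -0.10), *Trib3* was at -0.98 on the log2 scale (adjusted p = 0.639) and *Chac1* at -1.71 (adjusted p = 0.712), both under 6 CPM in every library. Of 11 genes that act on the turnover of MCL1 and BH3-only proteins (median -0.12), *Huwe1*, a ubiquitin ligase for MCL1, was at -0.26 (adjusted p = 0.880) and *Trim17* at -0.76 (adjusted p = 0.895). Of 13 genes of the mitochondrial outer membrane and its shape (median 0.05), *Itpr3*, a calcium channel of the endoplasmic reticulum, was at 42.8, 35.7 and 30.2 CPM against 48.2, 69.4 and 63.6 CPM without overlap (log2 fold change 0.74, adjusted p = 0.259), and the fusion gene *Mfn1* at -0.21 (adjusted p = 0.826).

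Promoter windows were read because GLI3 is a DNA-binding repressor and FOXO factors are known regulators of *Bcl2l11* and *Bbc3*. RefSeq (GRCm38.p6) gave 15 windows of 300 bases for 9 members, from 250 bases before to 50 after an annotated start. The GLI motif GACCACCCA, searched on both strands, was in 0 of the 15 and in 0.253% of all 32851 windows. The FOXO motif TGTTTAC, searched on both strands, was in 2 of the 15, 1 window each of *Bcl2l11* and *Bbc3*, and in 3.65% of all windows. The *Bcl2l11* window that holds it is printed because this gene stood nearest to a call, with the match, read on the opposite strand, in capitals, and the *Bcl2* window is printed beside it as one without either motif. Both are given on the strand of their gene. A match is a description of letters, and no match says only that these letters are not in the window. The paper counts *Bcl2* among conserved GLI-target genes, and sites outside the windows or with other letters were not searched.
Bcl2l11, chr2:128125788-128126087, plus strand: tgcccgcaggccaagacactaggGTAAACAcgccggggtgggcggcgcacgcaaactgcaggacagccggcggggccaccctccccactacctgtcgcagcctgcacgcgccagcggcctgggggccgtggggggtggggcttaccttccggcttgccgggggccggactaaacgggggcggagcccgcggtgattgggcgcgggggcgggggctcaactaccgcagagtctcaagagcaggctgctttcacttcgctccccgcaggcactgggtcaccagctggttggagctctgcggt
Bcl2, chr1:106714241-106714540, minus strand: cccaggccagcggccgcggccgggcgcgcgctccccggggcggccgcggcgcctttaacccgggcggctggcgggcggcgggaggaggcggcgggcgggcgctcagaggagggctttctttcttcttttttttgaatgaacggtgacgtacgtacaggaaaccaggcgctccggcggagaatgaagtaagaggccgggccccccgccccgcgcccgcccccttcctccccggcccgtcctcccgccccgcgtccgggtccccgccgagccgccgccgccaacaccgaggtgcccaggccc

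Activated cells were reached only through the mean normalized count that the authors deposited with each of their comparisons. It was the same number in all 4 tables, gene by gene, and was taken as 1 mean over the 12 samples of the series. To set it beside the QSC libraries, both were scaled to the same total, and the authors' mean was divided by the mean of the 6 QSC libraries. On this scale a gene of equal level in the other 6 samples has a ratio of 1 and a gene with no counts there a ratio of about 0.5, and over 14696 genes of at least 1 CPM the median was 0.977 and the first percentile 0.501. The ratio carries no spread and no test, and it mixes both genotypes. The other samples differ from QSCs in injury, sort marker, muscles and pooling of mice as well as in activation. Because the QSC libraries enter both means, the ratio lies nearer to 1 than a direct ratio of the other samples to QSCs would.

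The members differed on this ratio, within roles as well as between them. *Bcl2* stood at 57.2 in the authors' mean against 102 in QSCs (ratio 0.562, below the lowest QSC library at 81.5, all as CPM on plain library totals), and *Mcl1* at 407 against 561 (ratio 0.726, below the lowest at 481). *Bcl2l1*, in contrast, stood at 52.0 against 30.8 (ratio 1.69). For *Bcl2*, the paper reports a significant fall from quiescent to activated Gli3+/+ cells, from its own comparison of these groups. Both effectors were above the QSC range, with *Bax* at 78.5 against 31.2 (ratio 2.51, highest QSC library 35.3) and *Bak1* at 38.8 against 17.6 (ratio 2.20).

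Among the BH3-only genes, *Pmaip1* had the highest ratio of the family, with 17.0 against 2.36 (ratio 7.18, above the highest QSC library at 4.43). *Bid* was at a ratio of 2.12 and *Bbc3* at 1.96, both above every QSC library. *Bad* was at 1.23, with an authors' mean of 16.2 just above the highest QSC library at 15.9. *Bcl2l11* was at 0.914, inside the QSC range, and was the 1 member that did not leave it. In all, 7 members lay above the range of the 6 QSC libraries and 2 below it, where 31.0% and 22.7% of the 14696 genes did.

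**Figure D4:**
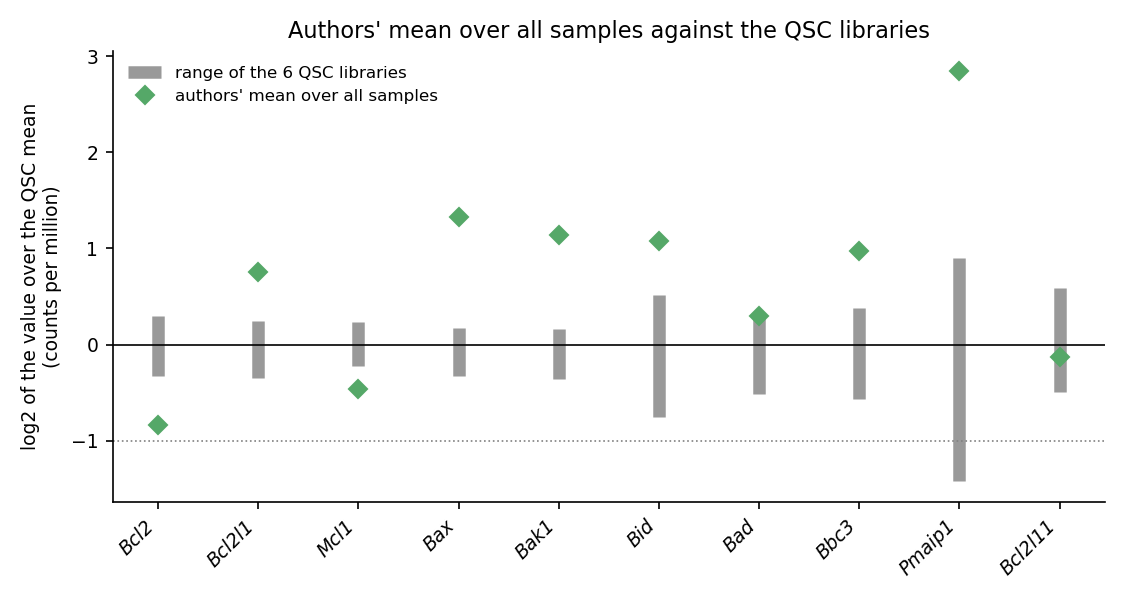
Authors' mean over all 12 samples (green diamonds) and range of the 6 QSC libraries (grey bars), each as log2 of the value over the QSC mean in CPM on plain totals, where 0 is the QSC mean and the dotted line at -1 is the level of a gene with no counts outside QSCs. *Bcl2* and *Mcl1* lie below the bars, *Bcl2l11* lies inside its bar, and the other 7 members lie above, *Pmaip1* farthest at a ratio of 7.18.

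The same ratio was taken for the lists, over genes of at least 1 CPM in QSCs. The counts are to be read against all 14696 such genes, of which 31.0% were above the QSC range and 22.7% below it (median ratio 0.977). Of 18 genes of the apoptosome, caspases and inhibitors of apoptosis, 10 were above the QSC range and 2 below it (median ratio 1.29), and of 17 p53 network genes 11 were above and 3 below (median 1.58). Of 13 genes of the outer membrane and its shape 8 were above and 2 below (median 1.19), and of 12 death receptor genes 5 were above and 0 below (median 1.08). The remaining family genes were divided, 3 above and 2 below among 8 (median 1.03). Among 10 stress and FOXO regulators 1 was above and 3 were below (median 0.724), and among 10 turnover genes 2 were above and 0 below (median 1.01).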

How the data were processed

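Per the paper's methods, the authors quantified reads with salmon against the GENCODE vM19 transcripts of GRCm38, summed them to genes with tximport and kept genes with at least 5 reads in at least 2 samples. They deposited the estimated counts, without normalization. They also deposited 4 tables of DESeq2 comparisons, whose signal column, the mean of counts divided by size factors, is the authors' mean over all samples (it had been taken as a mean per table when the tests were chosen); the fold changes, p-values and adjusted p-values in those tables were not used. No label matches the 6 count columns of the ASC libraries, which were left unused, so the planned tests of ASCs, of activation and of their interaction with genotype were not run.

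In R 4.3.3, the rounded QSC counts went through TMM and the quasi-likelihood test of edgeR 4.0.16, with Benjamini-Hochberg correction over 25093 genes. The study's thresholds were kept, 0.05 for the adjusted p and 1.2 for the fold change. The test was repeated with DESeq2 1.42.0 and with voom and sample weights in limma 3.58.1, and then with other size factors, filters and gene sets, a replicate block, and leaving out each library. Tests were checked on simulated data, where DESeq2 called more unchanged genes and recovered more changed genes than the other tools. There limma-voom recovered fewer changed genes than first required, after which that requirement was lowered and the tests were kept as they were. Loci and exon lengths come from GENCODE vM21, where 7 of 10 member identifiers have the same version. The text names all members, the 2 lowest p-values of each list, the 5 genes most like *Bcl2* and markers that move with a member. A few genes named by this rule are left out of the text. Members and lists were chosen with earlier results of these data known, and role shares, BH3 stretches and motifs after the values were seen. Libraries held 39556784 to 65750131 counts.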

Additional observations from a re-analysis of the deposited data

How the results depend on the processing

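In QSCs 0 members were called under every alternative except DESeq2, which called 1 member (*Bcl2l11*) and 384 genes against 88. Genes called numbered 48 with at least 10 counts in every library, 40 among protein-coding genes, and 58 (without Gli3Δ/Δ replicate 3) to 103 (without Gli3+/+ replicate 1) when 1 library was left out, with 0 members each time. The replicate number as a block, which same-numbered libraries did not bear out (correlations of their deviations -0.28, -0.02 and -0.06), gave 79 genes and 0 members. *Bcl2l11* kept a negative log2 fold change in all 14 alternatives (-0.82 to -0.64, adjusted p 0.00258 to 0.425, with 0.363 under the block), as did *Bbc3* (-0.41 to -0.05), and *Bax* (0.13 to 0.25) and *Bak1* (0.01 to 0.33) kept a positive one. The alternative without a minimum fold change is the main fit itself, so its fold changes could not differ.

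The direction of the other members turned. limma-voom gave *Bcl2l1* 0.020 and *Bid* 0.28. When 1 library was left out, the ranges were -0.083 to 0.22 for *Bcl2*, -0.18 to 0.12 for *Bcl2l1*, -0.18 to 0.10 for *Mcl1*, -0.36 to 0.35 for *Bid*, -0.041 to 0.28 for *Bad* and -1.21 to 0.16 for *Pmaip1*. *Bcl2l1*, *Mcl1*, *Bid*, *Bad* and *Pmaip1* turned without Gli3+/+ replicate 3, *Bcl2* without Gli3+/+ replicate 1, *Bid* without Gli3Δ/Δ replicate 1, *Bcl2*, *Bcl2l1* and *Pmaip1* without Gli3Δ/Δ replicate 2, and *Bcl2*, *Mcl1* and *Pmaip1* without Gli3Δ/Δ replicate 3. The cause was not tested. With the longest transcript as length, Gli3+/+ levels per kilobase became 13.9 for *Bcl2*, 12.2 for *Bcl2l1*, 26.6 for *Bax*, 8.26 for *Bad* and 4.46 for *Bcl2l11*, which put *Bcl2l1* and *Bad* above *Bak1*, and *Bcl2l11* above *Bbc3*. Scaling the authors' mean as deposited or by the median of all genes kept every ratio on its side of 1. Alternatives planned for ASCs were not run. The least counted members were *Pmaip1* (58 to 230 counts a library), *Bbc3* (195 to 488) and *Bid* (229 to 517). Their spread between libraries beyond counting error was 51.9%, 25.3% and 33.9%, so that their intervals do not rest on depth alone.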
